A study of Mus musculus with 6 samples.

Results

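The genes described here are the cyclin-dependent kinase (CDK) inhibitors of the Cip/Kip family (Cdkn1a, Cdkn1b and Cdkn1c) and of the INK4 family (Cdkn2a, Cdkn2b, Cdkn2c and Cdkn2d), together with the D cyclins Ccnd1, Ccnd2 and Ccnd3. They were taken by gene symbol from the deposited count table, where all 10 were found among 23420 genes. Of these 10 genes, 9 had enough counts to be among the 12257 genes tested; Cdkn2a did not.

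D cyclins bind CDK4 and CDK6 and, in response to growth signals, start the phosphorylation of the retinoblastoma protein that lets E2F factors switch on the genes of S phase. INK4 proteins bind CDK4 and CDK6 and keep D cyclins off them, while Cip/Kip proteins bind complexes of cyclins and CDKs and chiefly block those of CDK2. In the lens, epithelial cells leave the cell cycle as they become fibre cells, and in the mouse the Cip/Kip proteins p27 (Cdkn1b) and p57 (Cdkn1c) act together in that exit.

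RNA was sequenced from the lens transition zone of mouse embryos at E14.5, the band where epithelial cells stop dividing and begin to elongate. The 3 mutant libraries came from embryos of genotype Le-Cre with Etv4-/-, Etv5fl/fl and Etv1 fl/fl, so that Etv4 was null throughout the animal and Etv5 and Etv1 were open to deletion wherever Cre had been made. The 3 control libraries carried Le-Cre alone, a transgene that drives Cre in the ectoderm from which the lens arises, so all 6 libraries share it. Etv1, Etv4 and Etv5 encode the Pea3 factors, ETS proteins that act in growth factor signalling. Both groups had a mixed strain background, and separate embryos are not stated for the libraries, so that the spread behind each p-value is that of these libraries and may be technical.

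Libraries held between 13364742 and 17301168 counts (mutant) and between 16162956 and 17092433 counts (control), and 1 count stood for 0.0508 to 0.0825 CPM (counts scaled to the effective library size). The targeted genes stood at 21.6 to 29.0 CPM in mutant and 45.4 to 70.7 CPM in control libraries for Etv1, at 82.9 to 116.2 CPM in mutant and 168.2 to 245.5 CPM in control libraries for Etv5, and at 3.71 to 4.92 CPM in mutant and 2.13 to 3.21 CPM in control libraries for Etv4. Etv1 fell (log2 fold change -1.11; adjusted p = 0.0319, edgeR), while Etv5 (-0.93; adjusted p = 0.0503, edgeR) and Etv4 (0.64; adjusted p = 0.427, edgeR) did not pass. The Etv1 call was lost without mutant library 1 (adjusted p = 0.116, edgeR), mutant library 3 (0.117), control library 2 (0.125) or control library 3 (0.0929). Etv5 was called lower by DESeq2 (adjusted p = 0.00123), by limma voom (adjusted p = 0.0230) and with the crystallin covariate (adjusted p = 0.0127, edgeR), so the 2 genes are not shown to differ. Counts per gene can include exons outside a deleted part, so these levels do not by themselves check the labels. Lens fibre markers summed to between 62800.0 and 151201 CPM in mutant and between 88779 and 227553 CPM in control libraries, and lens epithelium markers to between 396.4 and 742.6 CPM in mutant and between 311.9 and 995.9 CPM in control libraries. Neural retina markers summed to at most 4.95 CPM in mutant and 9.34 CPM in control libraries, and Six6 was at 0 in all 6. Periocular mesenchyme markers summed to at most 8.02 CPM in mutant and 12.1 CPM in control libraries. In mutant library 1 Xist had 711 counts and Ddx3y 2. The other 5 libraries had at most 3 of Xist and at least 521 of Ddx3y, so the tissue of mutant library 1 differed in sex. For the CDK inhibitors, D cyclins, Plagl1 and Mcm2 it is said below where leaving out that library ends a call. For the other genes named as called, Etv1 aside, the values without that library are not given. The share of crystallin genes varied within both groups: they took 21.7%, 32.2% and 19.5% of counts in mutant libraries 1, 2 and 3 and 37.6%, 30.2% and 21.8% in control libraries 1, 2 and 3.

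Of the 9 tested genes, Cdkn1c fell and Cdkn2b rose in the mutant libraries, and the other 7 did not pass the threshold of 0.05 on the p-value adjusted over all genes tested (edgeR's quasi-likelihood test with Benjamini-Hochberg adjustment). Of all tested genes 2.22% passed, 1.14% higher and 1.08% lower in mutant libraries. The most abundant inhibitor gene of the transition zone, Cdkn1c, stood at 0.445 times its control level, while Cdkn2b, with at most 8 counts in a control library, was higher. Mutant and control values were fully apart for 3 of the 9 genes (Cdkn1c, Cdkn2b and Cdkn1a), and over all tested genes this held for 22.7%. The median log2 fold change of the 9 genes was 0.06 and that of all tested genes 0.00176. The levels are of RNA from bulk tissue, in which fewer cells of a kind and less RNA per cell cannot be told apart.

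**Figure D1:**
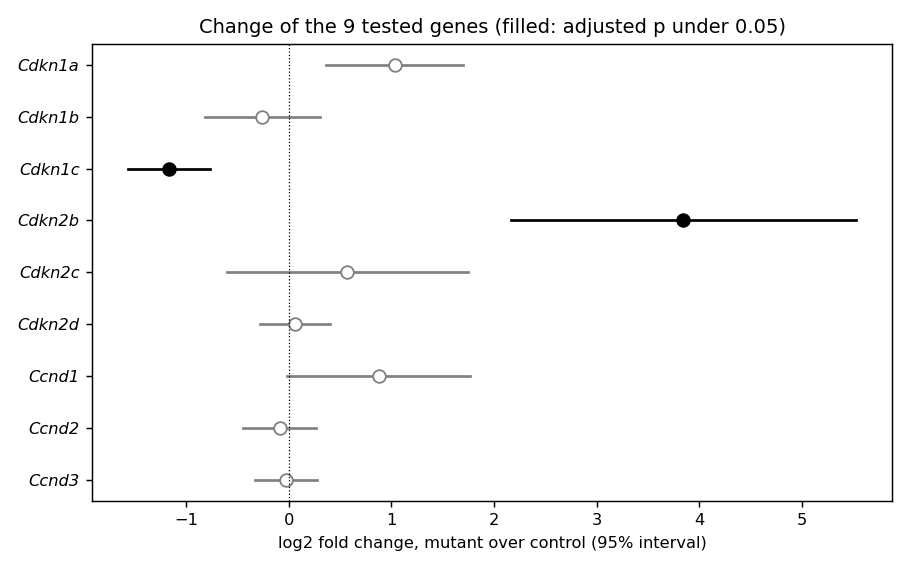
Log2 fold change (mutant over control) of the 9 tested genes with its 95% interval; filled points passed an edgeR adjusted p of 0.05. Cdkn1c lies below 0 at -1.17 and Cdkn2b above it at 3.85, while the intervals of Ccnd2, Ccnd3 and Cdkn2d are narrow and include 0.

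Cdkn1c, on chromosome 7, encodes p57, the Cip/Kip protein made in many cells as they stop dividing for good. It had 908, 989 and 1189.9 CPM in mutant libraries 1, 2 and 3, against 2572, 2240.4 and 2132 CPM in control libraries 1, 2 and 3. The highest mutant library lay well under the lowest control library, and no value of one group reached the other. The means were 1029 CPM ± 145 in mutant and 2315 CPM ± 229 in control libraries (SD, n = 3 each), a log2 fold change of -1.17 ± 0.17 (SE; 95% interval -1.57 to -0.77; edgeR adjusted p = 0.0121). With 51716 counts in mutant and 109764 in control libraries, counting error is small beside the spread between libraries. The call was lost without mutant library 1 (log2 fold change -1.09, edgeR adjusted p = 0.0841) and without control library 2 (-1.19, edgeR adjusted p = 0.0708); over the 15 other settings tried the log2 fold change lay between -1.29 and -1.09 and the adjusted p between 2.05e-09 and 0.0882. Of 17 tested lens fibre markers 16 had negative log2 fold changes as well (median -0.84), and 1 of them, Bfsp2, which encodes the beaded filament protein phakinin, passed the threshold. The fibre markers, crystallin genes among them, summed to 78401, 151201 and 62800.0 CPM in mutant libraries 1, 2 and 3. In control libraries 1, 2 and 3 they summed to 227553, 148588 and 88779 CPM, so the groups overlapped. Once the share of counts from crystallin genes entered the fit as a covariate, the log2 fold change of Cdkn1c was -1.14 (edgeR adjusted p = 0.00133). The part of fibre cell content in the Cdkn1c result was not tested.

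Cdkn1a encodes p21, a Cip/Kip inhibitor known as a direct target of p53 that also responds to growth signals. It had 79.5, 63.2 and 66.7 CPM in mutant libraries 1, 2 and 3, against 19.1, 38.2 and 44.7 CPM in control libraries 1, 2 and 3. The groups did not overlap, and control library 1 was the lowest. The means were 69.8 CPM ± 8.60 in mutant and 34.0 CPM ± 13.3 in control libraries (SD, n = 3 each), a log2 fold change of 1.03 ± 0.29 (SE; 95% interval 0.37 to 1.70) that did not pass in edgeR (adjusted p = 0.131). It did pass with DESeq2 (adjusted p = 0.0124), which called 6.7% of all genes, with limma voom (adjusted p = 0.0279), which called 6.59%, and once crystallin share entered the fit (edgeR adjusted p = 0.0291); the adjusted p lay between 0.0124 and 0.341 over the 15 other settings.

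Cdkn1b encodes p27, the Cip/Kip inhibitor that is controlled largely through the breakdown of its protein. It had 8.02, 10.5 and 7.30 CPM in mutant libraries 1, 2 and 3, against 9.57, 11.5 and 9.70 CPM in control libraries 1, 2 and 3. The groups overlapped, and -0.26 ± 0.24 was the log2 fold change, which did not pass (± SE; 95% interval -0.82 to 0.30; edgeR adjusted p = 0.645). The interval runs from 0.567 to 1.23 times the control level, so a fall of the size seen for Cdkn1c lies outside it.

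**Figure D2:**
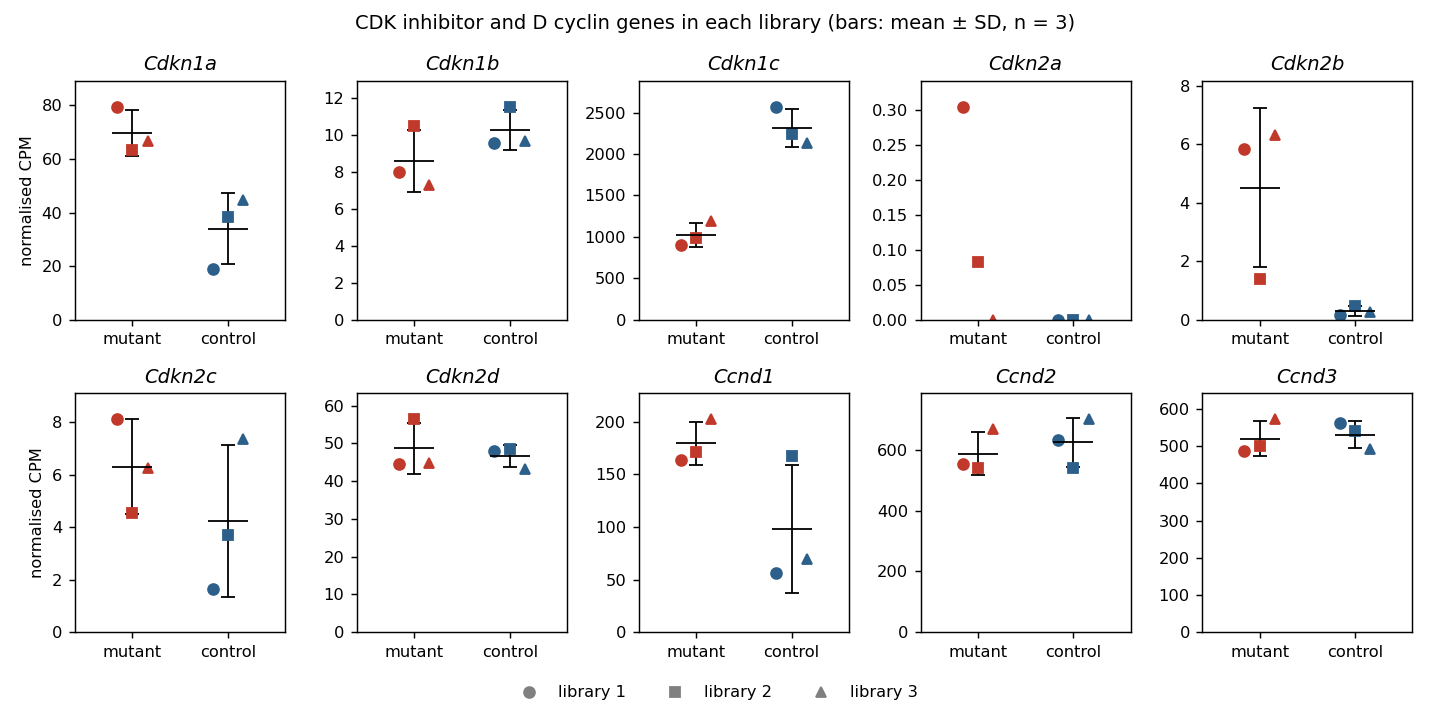
Normalised CPM of each of the 10 genes in each library, mutant libraries left and control libraries right, each panel with its own axis from 0; points are libraries and bars the mean ± SD (n = 3; none drawn for Cdkn2a, which had 7 counts in all). The 3 mutant libraries lie below all control libraries for Cdkn1c and above them for Cdkn1a and Cdkn2b, and control library 2 lies among the mutant libraries for Ccnd1.

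Among the INK4 genes, Cdkn2b rose. It encodes p15, a CDK4 and CDK6 inhibitor known to be induced by TGF-beta. It had 115, 17 and 116 counts in mutant libraries 1, 2 and 3, against 2, 8 and 5 counts in control libraries 1, 2 and 3. These are 5.84, 1.40 and 6.32 CPM in mutant and 0.149, 0.486 and 0.277 CPM in control libraries. Mutant libraries 1 and 3 were alike, and mutant library 2 lay nearer to the controls without reaching them. The log2 fold change was 3.85 ± 0.74 (SE; 95% interval 2.16 to 5.53; edgeR adjusted p = 0.0363). The call was lost when any library but mutant library 2 was left out (mutant library 1 or 3, or control library 1, 2 or 3), and over the leave-out fits the log2 fold change lay between 3.53 and 4.33; the edgeR adjusted p was 0.162 without mutant library 1 and 0.172 without mutant library 3, with the crystallin covariate the log2 fold change was 3.07 (adjusted p = 0.0225), and over 14 other settings and tools the adjusted p lay between 3.27e-05 and 0.172. Macrophage markers were also highest in mutant libraries 1 and 3. The 9 markers found summed to 34.2, 4.70 and 38.6 CPM in mutant libraries 1, 2 and 3, against 11.2, 3.77 and 1.55 CPM in control libraries 1, 2 and 3. The log2 fold change was above 0 for all 7 tested markers (median 2.20), 0 of them passed in edgeR and 4 had an unadjusted p under 0.05, against 16.2% of all tested genes; Cx3cr1 was at 0 in mutant library 2 and Emr1 at 0 in control libraries 2 and 3. Proliferation genes, treated below, were highest in mutant libraries 1 and 3 as well. They summed to 2045, 1135 and 1970 CPM in mutant libraries 1, 2 and 3. In control libraries 1, 2 and 3 they summed to 428, 950 and 1164 CPM. The part of macrophage or proliferating cells in the Cdkn2b result was not tested.

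The Cdkn2b start region is shown because it belongs to the inhibitor gene that rose and because the targeted Pea3 factors belong to the ETS proteins, which bind a GGAA core. It spans chr4:89310983-89311282 on the minus strand of GRCm38.p6 (RefSeq), another build than the authors' mm9, and runs from 250 bases before the annotated start to 50 bases within the gene. It is written 5′ to 3′ along the gene, and capitals mark a GC box, GGGCGG, the site of Sp1-type factors.
Cdkn2b: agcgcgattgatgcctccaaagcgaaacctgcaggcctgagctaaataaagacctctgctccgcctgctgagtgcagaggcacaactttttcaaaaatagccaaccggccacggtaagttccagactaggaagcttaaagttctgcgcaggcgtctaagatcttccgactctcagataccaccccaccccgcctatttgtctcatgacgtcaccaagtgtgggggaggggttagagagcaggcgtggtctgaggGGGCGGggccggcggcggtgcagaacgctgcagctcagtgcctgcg
Start regions were given for 7 of the 10 genes, as 11 regions in all, among 32851 for the genome. None was given for Cdkn1c, Ccnd1 or Ccnd2, so these genes were not searched. The bare core GGAA, searched on both strands, stood in all 11 and in 96.0% of all start regions, the Cdkn2b region included. The longer form CCGGAA stood in 1 of the 11, a region of Ccnd3, and in 14.9% of all start regions. The still longer form CCGGAAGT, held by 3.89% of all, was in none of the 11. GGGCGG was found in 9 of the 11 regions and in 35.7% of all regions. The 11 regions held up to 77.0% G and C, and all but a Cdkn2c region (44.0%) exceeded the median of all start regions (52.7%). The part of this base content in the GGGCGG count was not tested. These are matches of letters only.

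The other INK4 genes did not pass. Cdkn2a, whose locus lies next to Cdkn2b and encodes both p16 and the unrelated p19Arf, which counts per symbol cannot tell apart, had 6, 1 and 0 counts in mutant libraries 1, 2 and 3 and 0 counts in each control library. A count of 0 allows up to 0.224, 0.182 and 0.166 CPM in control libraries 1, 2 and 3 (3 counts, for counting error only), and only mutant library 1 held more than 3 counts. Cdkn2c encodes p18. It had 8.12, 4.54 and 6.27 CPM in mutant libraries 1, 2 and 3, against 1.64, 3.71 and 7.37 CPM in control libraries 1, 2 and 3, and 0.57 ± 0.51 was its log2 fold change, which did not pass (± SE; adjusted p = 0.629, edgeR). The controls alone spanned nearly the whole range of Cdkn2c, from the lowest library to the second highest. Cdkn2d encodes p19Ink4d. It had 44.6, 56.5 and 44.9 CPM in mutant libraries 1, 2 and 3, against 48.1, 48.5 and 43.2 CPM in control libraries 1, 2 and 3, a log2 fold change of 0.062 ± 0.15 (SE; 95% interval -0.28 to 0.40; edgeR adjusted p = 0.880) whose sign turned with limma voom (-0.027) and without mutant library 2 (-0.059).

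None of the 3 D cyclin genes passed in edgeR, 0 had an unadjusted p under 0.05, and 0 were called by DESeq2 or limma voom. Ccnd1, on chromosome 7, is a well known target of growth factor and ERK signalling. It had 164.1, 171.4 and 202.7 CPM in mutant libraries 1, 2 and 3, against 56.4, 167.8 and 69.4 CPM in control libraries 1, 2 and 3. The mutant libraries were alike, whereas control library 2 stood at their level and the other 2 controls far below. The means were 179.4 CPM ± 20.5 in mutant and 97.9 CPM ± 60.9 in control libraries (SD, n = 3 each), and 0.87 ± 0.38 was the log2 fold change, which did not pass (± SE; 95% interval -0.02 to 1.77; edgeR adjusted p = 0.319). Without control library 2 it passed, at a log2 fold change of 1.51 (edgeR adjusted p = 0.0216), and over all 15 other settings the adjusted p lay between 0.0216 and 0.603.

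Ccnd2 encodes cyclin D2. It had 552.8, 538.9 and 667.9 CPM in mutant libraries 1, 2 and 3, against 632.9, 540.8 and 701.0 CPM in control libraries 1, 2 and 3. Its log2 fold change was -0.091 ± 0.16 (SE; 95% interval -0.45 to 0.26; edgeR adjusted p = 0.820), an interval of 0.734 to 1.20 times the control level. Ccnd3 encodes cyclin D3. It had 487.4, 501.2 and 573.5 CPM in mutant libraries 1, 2 and 3, against 561.9, 540.0 and 492.0 CPM in control libraries 1, 2 and 3. Its log2 fold change was -0.029 ± 0.13 (SE; 95% interval -0.33 to 0.27; edgeR adjusted p = 0.937), an interval of 0.795 to 1.21 times the control level, and its sign turned without mutant library 1 (0.017) or control library 1 (0.013). Both genes overlapped between the groups throughout, and for both a change of 1 on the log2 scale lies outside the interval.

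The Ccnd3 start region with CCGGAA lies at chr17:47593217-47593516 on the plus strand of GRCm38.p6 (RefSeq) and is shown because it was the only one of the 11 to hold CCGGAA, in the gene whose level differed least. These letters begin 138 bases before the annotated start. Capitals mark them and, in both orientations, GGGCGG.
Ccnd3: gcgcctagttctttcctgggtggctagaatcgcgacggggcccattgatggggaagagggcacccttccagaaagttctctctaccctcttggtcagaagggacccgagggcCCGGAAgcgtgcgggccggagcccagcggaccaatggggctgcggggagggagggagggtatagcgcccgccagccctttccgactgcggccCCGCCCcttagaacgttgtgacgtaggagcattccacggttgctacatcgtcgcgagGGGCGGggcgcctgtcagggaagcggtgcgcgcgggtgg
The other annotated start region of Ccnd3 held no CCGGAA.

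Levels of different genes were compared per length, as CPM per kilobase of merged exons in the GENCODE M21 annotation. In mutant libraries the order was Cdkn1c (504.7 CPM per kilobase ± 71.1), Ccnd2 (62.3 ± 7.53), Ccnd3 (59.3 ± 5.27), Ccnd1 (38.1 ± 4.36), Cdkn2d (30.9 ± 4.31), Cdkn1a (19.6 ± 2.42), Cdkn2b (3.25 ± 1.95), Cdkn2c (2.35 ± 0.668), Cdkn1b (1.89 ± 0.365) and Cdkn2a (0.110 CPM per kilobase; SD, n = 3). In control libraries the order was Cdkn1c (1135 CPM per kilobase ± 112), Ccnd2 (66.4 ± 8.55), Ccnd3 (60.5 ± 4.07), Cdkn2d (29.6 ± 1.87), Ccnd1 (20.8 ± 12.9), Cdkn1a (9.58 ± 3.74), Cdkn1b (2.26 ± 0.242), Cdkn2c (1.58 ± 1.08) and Cdkn2b (0.219 ± 0.122), with Cdkn2a at 0. Ccnd2 and Ccnd3 overlapped between libraries in both groups, and with the longest transcript as the length they changed places. Other neighbours that overlapped were Ccnd1 with Cdkn2d, Cdkn2b with Cdkn2c and Cdkn2c with Cdkn1b in mutant libraries, and Cdkn2d with Ccnd1, Ccnd1 with Cdkn1a and Cdkn1b with Cdkn2c in control libraries. Cdkn1c therefore led in both groups, and Cdkn1b, its partner in lens cell cycle exit, was among the scarce transcripts in both.

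Within a library, the RNA of D cyclins stood higher against that of the inhibitors in the mutants. Summed per kilobase, the 3 D cyclins reached 0.295, 0.277 and 0.281 of the 7 inhibitors in mutant libraries 1, 2 and 3, against 0.110, 0.135 and 0.133 in control libraries 1, 2 and 3. The D cyclin sum itself was 149.1, 150.8 and 179.4 CPM per kilobase in mutant libraries and 143.3, 154.6 and 145.3 CPM per kilobase in control libraries, and the inhibitor sum 505.3, 543.8 and 639.4 CPM per kilobase in mutant and 1300.2, 1145 and 1091 CPM per kilobase in control libraries. The inhibitor sum was nearly all Cdkn1c, which made up 88.1%, 89.2% and 91.3% of it in mutant and 97.0%, 96.0% and 95.9% in control libraries; the ratio therefore follows Cdkn1c and was given no test of its own.

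The ratio of Ccnd1 to Cdkn1c counts was 0.181, 0.173 and 0.170 in mutant libraries 1, 2 and 3, against 0.0219, 0.0749 and 0.0326 in control libraries 1, 2 and 3. Control library 2 stood apart from the mutants in this ratio through its Cdkn1c level (2240.4 CPM), since its Ccnd1 level (167.8 CPM) lay among theirs. For every 100 counts of Cdkn1c there were 8.75, 6.39 and 5.60 counts of Cdkn1a in mutant libraries and 0.744, 1.71 and 2.10 in control libraries. Both ratios have Cdkn1c, which fell, as their denominator, and were given no test of their own. Ccnd1 made up 23.4%, 24.1% and 24.0% of the D cyclin sum per kilobase in mutant libraries, against 8.36%, 23.0% and 10.1% in control libraries 1, 2 and 3.

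**Figure D3:**
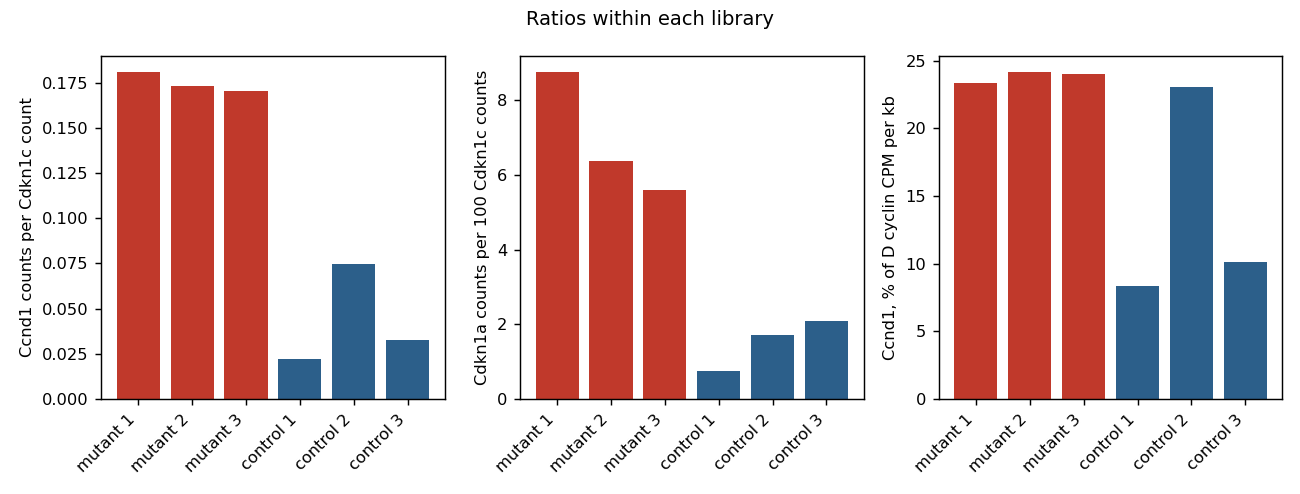
Ccnd1 counts per Cdkn1c count, Cdkn1a counts per 100 Cdkn1c counts, and the Ccnd1 share (percent) of the summed D cyclin CPM per kilobase, one bar per library, mutant libraries left of control libraries. Both ratios have Cdkn1c, which fell, as their denominator, and both are higher in all 3 mutant libraries than in any control library. In the Ccnd1 share control library 2, at 23.0%, is close to the mutant libraries.

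Among the partners of these proteins in the cell cycle engine, of 13 tested CDKs and later cyclins 0 passed in edgeR, 4 had an unadjusted p under 0.05, against 16.2% of all tested genes, and the log2 fold change was above 0 for 11 (median 0.76). DESeq2 and limma voom each called 1 (against 6.7% and 6.59% of all genes), Ccne1, the cyclin E gene that acts after the D cyclins (68.7, 33.3 and 77.5 CPM in mutant and 11.1, 30.0 and 30.0 CPM in control libraries; log2 fold change 1.34 ± 0.44 SE; adjusted p = 0.192, edgeR). Ccnb2, a mitotic cyclin gene, had a log2 fold change of 0.95 ± 0.35 (± SE; adjusted p = 0.249, edgeR). Cdk4 and Cdk6, the D cyclin partners, were named with their values in view; their log2 fold changes were 0.54 ± 0.25 and -1.18 ± 0.56 (± SE; adjusted p = 0.334 and 0.341, edgeR). Values did not overlap for 4 of the 13 genes, against the 22.7% of all tested genes.

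Of 19 tested genes for pocket proteins, E2F factors and the DREAM complex, which read out and relay D cyclin activity, 0 passed in edgeR and 5 had an unadjusted p under 0.05, against 16.2% of all tested genes. DESeq2 called 3 of the 19 (E2f1, Tfdp2 and Rbbp4) and limma voom 4 (E2f1, Tfdp2, Rbbp4 and Rbl1), all higher, against 6.7% and 6.59% of all genes. The median log2 fold change was 0.28. E2f1, an activator of S phase genes, had 33.8, 29.6 and 45.8 CPM in mutant libraries and 12.0, 18.9 and 19.6 CPM in control libraries (log2 fold change 1.11 ± 0.25 SE; adjusted p = 0.0658, edgeR). Tfdp2, which encodes a dimer partner of E2F factors, had a log2 fold change of 0.90 ± 0.23 (± SE; adjusted p = 0.0926, edgeR). Among the pocket proteins, named after their values were seen, Rbl1 (p107, found chiefly in cycling cells) had 24.4, 17.6 and 29.3 CPM in mutant and 11.4, 13.1 and 16.7 CPM in control libraries. Rbl2 (p130, found chiefly in resting cells) had 15.7, 11.1 and 7.58 CPM in mutant and 22.9, 15.9 and 18.2 CPM in control libraries. For both genes the groups did not overlap, Rbl1 being higher and Rbl2 lower in mutant libraries, and neither passed (edgeR adjusted p = 0.165 and 0.272), while Rb1 had a log2 fold change of 0.059 ± 0.17 (SE).

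All 14 tested proliferation genes had log2 fold changes above 0 (median 0.97). Of these 1 rose, Mcm2, a subunit gene of the replicative helicase (log2 fold change 1.10 ± 0.17 SE; adjusted p = 0.0155, edgeR), while 13 did not pass in edgeR. Of all tested genes 2.22% passed in edgeR. An unadjusted edgeR p under 0.05 was found for 6 of the 14, against 16.2% of all tested genes. DESeq2 called 3 (Mcm2, Mcm3 and Mcm6) and limma voom 2 (Mcm2 and Rrm2), against 6.7% and 6.59% of all genes. Rrm2, a subunit gene of ribonucleotide reductase, had a log2 fold change of 1.66 ± 0.53 (± SE; adjusted p = 0.184, edgeR). The edgeR call of Mcm2 was lost without mutant library 1 or 3 or control library 2 (log2 fold change 1.07, 1.10 and 1.17). The median log2 CPM of the 14 genes was 7.15, 6.03 and 6.99 in mutant libraries 1, 2 and 3, and 4.60, 5.88 and 6.16 in control libraries 1, 2 and 3, so mutant library 2 lay among the controls and control library 1 lowest. Cdkn1a, Cdkn2b, Cdkn2c and Ccnd1 were also at their lowest in control library 1. Without it their log2 fold changes were 0.75, 3.56 (adjusted p = 0.0847, edgeR, no longer called), 0.19 and 0.60, against 1.03, 3.85, 0.57 and 0.87 with all libraries, and that of Cdkn1c was -1.09 (edgeR adjusted p = 0.0280).

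Genes for the turnover of these proteins gave 0 calls among 16 tested in edgeR, with 4 at an unadjusted p under 0.05 (against 16.2% of all tested genes). DESeq2 and limma voom each called 2 (Rnf123 lower and Pcna higher), against 6.7% and 6.59% of all genes. Rnf123 encodes KPC1, a ubiquitin ligase subunit for p27. It had 102.6, 234.5 and 88.0 CPM in mutant libraries 1, 2 and 3, against 541.3, 344.9 and 257.9 CPM in control libraries 1, 2 and 3 (log2 fold change -1.43 ± 0.42 SE; adjusted p = 0.155, edgeR). Cul1, the scaffold of SCF ubiquitin ligases, had a log2 fold change of 0.36 ± 0.12 (± SE; adjusted p = 0.202, edgeR). Of 8 tested genes for CDK phosphatases, CDK kinases and other genes of Cdkn symbol, 0 passed in edgeR, 1 had an unadjusted p under 0.05 (Cdkn2aip, log2 fold change 0.45 ± 0.18 SE), a share under the 16.2% of all tested genes, and DESeq2 and limma voom called 0; Cdkn2aipnl had a log2 fold change of 0.60 ± 0.26 (SE).

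Of 16 tested genes for transcription factors and chromatin proteins that act on the inhibitors or D cyclins, 1 rose and 15 did not pass in edgeR. Of all tested genes 2.22% passed. The median log2 fold change of the 16 was -0.00268, and 4 had an unadjusted edgeR p under 0.05, against 16.2% of all tested genes. DESeq2 called 2 (Plagl1 and Hey1) and limma voom 1 (Plagl1), against 6.7% and 6.59% of all genes. The gene that rose was Plagl1, an imprinted gene that encodes the zinc finger protein ZAC1, a growth suppressor known in the mouse to activate Cdkn1c. It had 11.2, 14.0 and 11.4 CPM in mutant libraries 1, 2 and 3, against 3.59, 3.10 and 2.72 CPM in control libraries 1, 2 and 3. The mutant libraries were alike and far above the controls (log2 fold change 1.96 ± 0.26 SE; adjusted p = 0.00834, edgeR), in the direction opposite to that of Cdkn1c. The call was lost without control library 2, at a log2 fold change of 1.96 (edgeR adjusted p = 0.0566), and the adjusted p lay between 2.69e-08 and 0.0566 over 15 other settings. Hey1, a Notch target, had a log2 fold change of 0.62 ± 0.17 (± SE; adjusted p = 0.115, edgeR). Prox1, named after its values were seen, encodes the homeodomain factor that the mouse lens needs for Cdkn1b and Cdkn1c expression. It had 301.8, 343.6 and 276.2 CPM in mutant libraries 1, 2 and 3, against 444.7, 360.0 and 441.2 CPM in control libraries 1, 2 and 3, and -0.44 ± 0.15 was its log2 fold change, which did not pass (± SE; adjusted p = 0.188, edgeR).

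Cdkn1c is expressed from the maternal allele within an imprinted cluster, and no other gene of that cluster passed in edgeR. Of 12 tested, 0 passed in edgeR and 2 had an unadjusted p under 0.05, a share near the 16.2% of all tested genes. The median log2 fold change was -0.15. DESeq2 called 2 (Igf2 and H19) and limma voom 1 (Igf2), against 6.7% and 6.59% of all genes. Kcnq1ot1 is the noncoding RNA of the paternal allele that silences Cdkn1c in cis. It had 17.0, 15.5 and 10.3 CPM in mutant libraries and 20.3, 15.6 and 19.1 CPM in control libraries (log2 fold change -0.36 ± 0.24 SE; adjusted p = 0.511, edgeR). The neighbouring growth factor gene Igf2 had 555.6, 899.9 and 627.6 CPM in mutant libraries, against 382.5, 240.5 and 211.2 CPM in control libraries, and just missed the threshold (log2 fold change 1.32 ± 0.27 SE; adjusted p = 0.0507, edgeR). H19 had a log2 fold change of 0.45 ± 0.13 (± SE; adjusted p = 0.138, edgeR). Counts per gene do not tell the parental alleles apart. Of 14 tested imprinted growth genes elsewhere, Plagl1 rose and 13 did not pass in edgeR; Igf2r, which encodes the receptor that clears IGF2, had a log2 fold change of -1.98 ± 0.43 (± SE; adjusted p = 0.0690, edgeR), and values did not overlap for 7 of these 14, against 22.7% of all tested genes. DESeq2 called 4 of the 14 (Plagl1, Dlk1 and Peg10 higher, Igf2r lower) and limma voom 3 (Plagl1 and Grb10 higher, Igf2r lower). Over all genes these shares were 6.7% and 6.59%. In edgeR 7 of the 14 had an unadjusted p under 0.05, against 16.2% of all tested genes.

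Of 14 tested genes of the p53 response, to which Cdkn1a belongs, 0 passed in edgeR and 2 had an unadjusted p under 0.05, a share under the 16.2% of all tested genes. These were Ccng1, with a log2 fold change of 0.42 ± 0.12, and Phlda3, with one of 1.20 ± 0.35 (± SE; adjusted p = 0.137 and 0.149, edgeR). DESeq2 called 1 (Phlda3) and limma voom 2 (both), against 6.7% and 6.59% of all genes. For Mdm2 and Bax, named with their values in view, log2 fold changes (± SE) were -0.065 ± 0.13 and 0.18 ± 0.13, and the median of the list was 0.30.

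**Figure D4:**
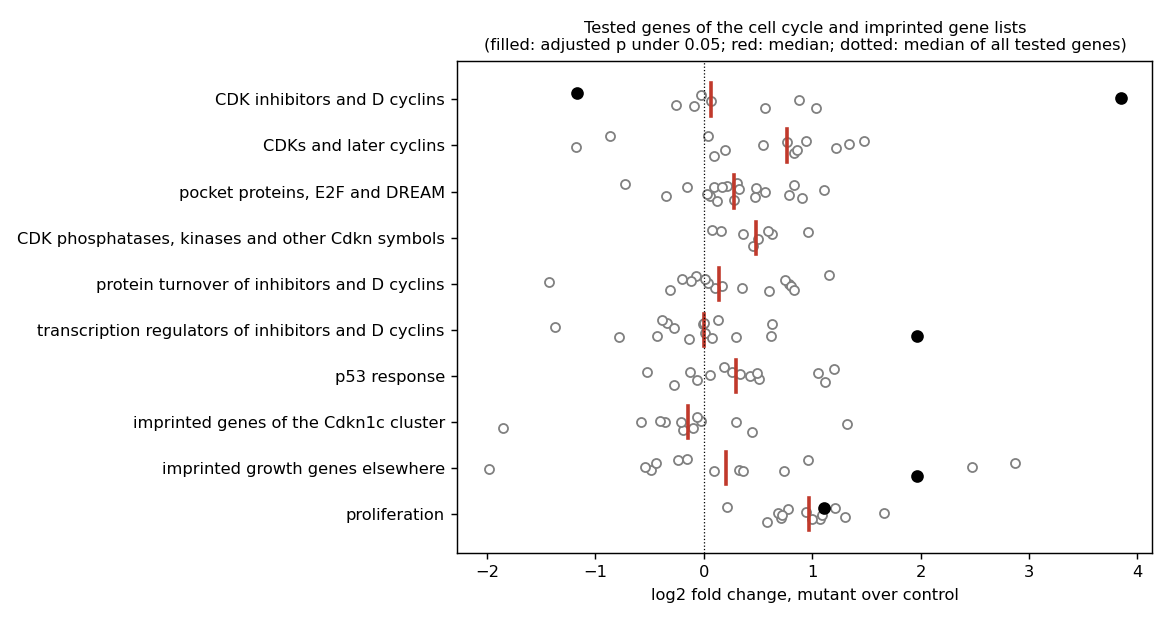
Log2 fold change (mutant over control) of the tested genes of each list, one point a gene, filled where the edgeR adjusted p was under 0.05; red bars are list medians and the dotted line the median of all tested genes. The 14 proliferation genes all lie above 0, and the filled points are Cdkn1c, Cdkn2b, Plagl1 (in 2 lists) and Mcm2.

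Neighbours in chromosomal order were counted among tested genes, passing over untested genes that may lie nearer. None of the 35 other genes within 2 such places of the 10 genes passed in edgeR. The values of 6 of them did not overlap between the groups, a share under the 22.7% of all tested genes. Of these 6, named with values in view, Tusc1 by Cdkn2b was lower (log2 fold change -1.72 ± 0.36 SE; adjusted p = 0.0511, edgeR). Klhl9 by Cdkn2a was higher (0.70 ± 0.17 SE; adjusted p = 0.0910, edgeR). The genes whose log2 CPM followed that of Cdkn1c most closely over the 6 libraries, among 9692 compared, were Pcyox1 (Pearson r = 0.995), Slc26a11 (0.993), Trim26 (0.992), 2900026A02Rik (0.992) and Epb4.1l4b (0.991), of which Pcyox1, Slc26a11 and 2900026A02Rik fell. For Cdkn2b, among 9693 compared, these were Cbfb (0.996), Pcolce (0.993), Uba2 (0.991), Zbed3 (0.991) and Ppp2r2a (0.989), of which Cbfb rose. The correlations describe likeness only, since the 6 libraries form 2 groups.

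In the authors' deposited table, made from the same libraries, the log2 fold changes were -1.16 for Cdkn1c (adjusted p = 3.74e-09 in the authors' deposited table), 3.18 for Cdkn2b (adjusted p = 1.67e-05 in the authors' deposited table) and positive for Cdkn1a (adjusted p = 0.0124 in the authors' deposited table). Ccnd1 had one of 0.84 in the authors' deposited table, with an adjusted p of 0.131. That table calls 6.11% of the genes to which it gives an adjusted p, and of the 10 genes Cdkn1c, Cdkn2b and Cdkn1a were among them.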

How the data were processed

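Per the labels' protocols, RNA from frozen embryos was amplified by SMART-seq chemistry for low input, which marks neither molecules nor strand. Floors therefore cover counting error only, and overlapping genes may share counts. The intervals also include the spread between libraries, since they follow from the quasi-likelihood F test. The submitters' processing notes list bcl2fastq 1.8.4, TopHat, Cufflinks, DESeq and mm9 with no roles; counter, annotation and filters: not given in the sources used here. Raw counts per gene symbol were deposited singly and as a joint table (0 entries differ). The authors' comparison, also deposited, holds log2 fold changes with their errors, a score, each p-value and its adjusted form, and a mean signal over libraries. Its positive values mean higher in mutant libraries, as for 272 of the 272 genes called here.

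Sample titles gave groups and replicate numbers. The count model was edgeR 4.0.16 (R 4.3.3): filterByExpr with minimum count 10 and minimum total 15 (12257 genes kept), TMM scaling, and a robust quasi-likelihood F test of group alone, with Benjamini-Hochberg adjustment over the genes tested and a threshold of 0.05. Each SE follows from its F statistic. The steps were checked on simulated counts. Alternatives were other scalings and filters, a crystallin covariate, DESeq2 1.42.0, limma 3.58.1 (voom with quality weights), a replicate block and leaving out each library. The genes described, the gene lists and the rule for named genes (called genes and the 2 of lowest p in each list) were chosen with earlier results of these data known. No library copied another (chi-square over degrees of freedom of 29.7 to 146.4 within groups). Exon lengths (GENCODE M21) and gene order (RefSeq GRCm38.p6; 21571 symbols matched) come from another build than the authors'.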

Additional observations from a re-analysis of the deposited data

How the results depend on the processing

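The number of genes called over the whole table was 272, and 821 with DESeq2, 808 with limma voom, 798 once crystallin share entered the fit, 122 with the replicate block and between 91 and 479 when single libraries were left out. Of the CDK inhibitors and D cyclins, 1 rose (Cdkn2b). This count was 2 with DESeq2, with limma voom and with the crystallin covariate (Cdkn1a besides Cdkn2b). It was 0 with the filter of 5 CPM, which removed Cdkn2b from the test, and 0 with the replicate block. Over the leave-out fits it lay between 0 and 1. The gene was Cdkn2b without mutant library 2, but Ccnd1 and not Cdkn2b without control library 2. The count that fell was 1, and 0 with the replicate block; it lay between 0 and 1 in the leave-out fits. With the block, Cdkn1c had a log2 fold change of -1.17 (edgeR adjusted p = 0.0882) and Cdkn2b one of 3.66 (edgeR adjusted p = 0.137). The labels give no pairing, so the main fit held no block. Deviations of same-numbered libraries from their group means correlated at -0.28, -0.15 and 0.22. Those of libraries with unlike numbers correlated at between -0.36 and 0.41. Such correlations cannot show whether the samples were paired.

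The signs of Cdkn1a, Cdkn1b, Cdkn1c, Cdkn2b, Cdkn2c, Ccnd1 and Ccnd2 held in all settings where they were tested. The sign of Cdkn2d turned with limma voom (-0.027) and over the leave-out fits its log2 fold change lay between -0.059 and 0.12; that of Ccnd3 lay between -0.10 and 0.017. The cause of these turns was not tested. With 2 libraries left in a group the spread rests on fewer samples. Depth limits Cdkn2a and the control level of Cdkn2b, where 1 count is up to 0.0825 CPM.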
